A study of Homo sapiens with 3 samples.

Results

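AP-1 is a transcription factor assembled from FOS and JUN family proteins, and the genes described here are its 7 FOS and JUN family members (FOS, FOSB, FOSL1, FOSL2, JUN, JUNB and JUND) with 3 further immediate early genes (EGR1, IER2 and IER3). They were taken by symbol, as every locus whose gene name equals the symbol or holds it in a joined name, and all 10 were found among the 22714 gene names of the series. The cells were TC32, a long-established line of Ewing sarcoma that relies on EWS-FLI1, a fusion of the RNA-binding protein EWS with the ETS factor FLI1, and 3 RNA-seq libraries were made from them. The control library is labelled WT, the knockdown library is labelled as knockdown of EWS-FLI1 and titled shEF, and the YK library, so titled, came from cells given 3 µM of the compound YK in DMSO for 15 hours. All cells were grown in RPMI with 10% FBS. How the control was treated, how long the knockdown lasted and when the medium was last changed is not given in the sources used. YK is known as an inhibitor of the contact between EWS-FLI1 and its partner helicase DHX9.

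FOS proteins pair with JUN proteins through leucine zippers, and the pair binds DNA at the AP-1 element TGANTCA or the related element TGACGTCA. JUN proteins can also pair with one another. Immediate early genes are transcribed within minutes of growth factor, serum or stress signals without new protein synthesis, largely through MAP kinases that act on ternary complex factors and serum response factor at CArG boxes, and their transcripts decay fast. EGR1 is a zinc finger factor of this class, IER2 a nuclear protein and IER3 a regulator of survival and ERK signalling.

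Promoters of 8 of the 10 genes were in the RefSeq table used here (GRCh38.p14), and FOSL1 and IER3 were not among them. The 250 bases before the annotated start were searched on both strands for the CArG box by name and for TGANTCA, TGACGTCA, CCGGAAGT (an ETS core) and TATAAA. The windows of 4 genes are shown, of which EGR1, FOSL2 and JUN had the largest knockdown ratios among the 8 genes and JUND gave most of the family's transcripts. Capitals mark the matches.
EGR1 promoter, chr5:138465229-138465478, plus strand: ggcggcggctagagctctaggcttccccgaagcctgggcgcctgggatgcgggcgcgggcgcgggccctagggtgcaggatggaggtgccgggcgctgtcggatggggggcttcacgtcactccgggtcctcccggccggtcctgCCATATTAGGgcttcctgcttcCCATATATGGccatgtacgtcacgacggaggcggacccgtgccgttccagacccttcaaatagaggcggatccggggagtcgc
FOSL2 promoter, chr2:28392608-28392857, plus strand: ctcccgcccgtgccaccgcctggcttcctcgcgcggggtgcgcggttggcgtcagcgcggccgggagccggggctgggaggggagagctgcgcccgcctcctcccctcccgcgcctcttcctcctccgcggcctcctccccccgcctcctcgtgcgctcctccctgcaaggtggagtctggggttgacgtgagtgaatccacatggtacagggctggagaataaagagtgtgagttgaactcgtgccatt
JUN promoter, chr1:58784048-58784297, minus strand: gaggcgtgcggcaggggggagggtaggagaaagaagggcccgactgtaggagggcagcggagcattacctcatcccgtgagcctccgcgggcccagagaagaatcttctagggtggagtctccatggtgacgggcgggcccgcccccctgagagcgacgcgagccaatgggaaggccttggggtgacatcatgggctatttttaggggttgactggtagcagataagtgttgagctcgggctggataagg
JUND promoter, chr19:18281623-18281872, minus strand: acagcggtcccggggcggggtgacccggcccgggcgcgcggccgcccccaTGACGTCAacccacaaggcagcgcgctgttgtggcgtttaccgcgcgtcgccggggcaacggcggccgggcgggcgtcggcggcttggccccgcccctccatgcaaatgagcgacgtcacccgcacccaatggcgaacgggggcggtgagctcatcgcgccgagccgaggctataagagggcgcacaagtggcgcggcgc

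The EGR1 window held 2 CArG boxes, CCATATTAGG from 105 to 96 and CCATATATGG from 83 to 74 bases before the start, a motif found in 1.16% of 35116 promoter windows. JUND held TGACGTCA from 200 to 193 bases before the start, as did 1.65% of all windows somewhere. FOS, FOSB and JUNB each held TATAAA, which starts 33, 30 and 31 bases before the start and occurs in 10.7% of windows. No match to TGANTCA or CCGGAAGT, held by 6.57% and 3.42% of windows, was found in the 8 genes, and FOSL2, JUN and IER2 matched none of the 5 motifs. Only exact matches were counted, and sites farther upstream were not searched. The JUN window, for example, holds tgacatca, which differs from TGACGTCA by a base. By this search, the genes with the largest ratios after knockdown had no exact match in common in these windows.

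There was 1 library per group, so nothing below has a replicate check and no test was made. The deposited unit is FPKM, fragments per kilobase of locus, relative to the library's mapped fragments. FPKM of the median gene differed several-fold between libraries as deposited, with median log2 ratios to control of -2.14 after knockdown and -2.67 with YK over the 9883 compared genes above 0 in every library. Values called scaled were therefore multiplied by 0.325 (control), 1.44 (knockdown) and 2.12 (YK), which sets the median gene equal. A relative log2 ratio is a difference of log2(scaled FPKM + 1), which understates the change of scarce genes, and 1 or more in either direction counted as higher or lower. Genes were compared where their mean deposited FPKM was at least 1, which 9939 names met. Only 5 of the 10 genes did (FOSL2, JUND, EGR1, IER2 and IER3), and FOSL2 and EGR1 did so through the knockdown library, so the other 5 are given in full as well. FLI1, which carries the reads of the fusion's DNA-binding part, had 65.9 FPKM in the control, 1.48 after knockdown and 8.29 with YK, or 21.4, 2.13 and 17.6 when scaled. Of 5 Ewing markers, STEAP1, NR0B1, FLI1 and NKX2-2 were above 0 in every library and CD99 was listed at 0 in all of them. The summed scaled FPKM of these markers was 237 in the control, 39.1 after knockdown and 216 with YK. STEAP1 gave most of this sum, at 176.9, 30.76 and 148.1, and the sum includes FLI1, a part of the fusion knocked down. STEAP1, NR0B1 and FLI1 were lower after knockdown than in the control. NKX2-2 went the other way, from 0.852 in the control to 1.497 after knockdown. Summed scaled FPKM of 6 fibroblast markers was 26.5 in the control, 57.7 after knockdown and 28.4 with YK, but the 6 did not move together. From control to knockdown, LUM went from 13.66 to 36.02 and FAP from 3.181 to 14.21, and PDGFRA and PDGFRB were also higher. DCN was lower, from 8.819 to 1.699, as was THY1, from 0.1541 to 0.0381. The 4 endothelial markers summed to 0.131, 0.642 and 1.15, and of 4 blood cell markers CD68 gave nearly all of 20.01, 26.7 and 14.4 while CD3E was at 0 throughout. The part of other cells in the results was not tested, and in bulk RNA a change in cell number and a change in RNA per cell cannot be told apart.

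Of these genes, 7 had under 1 FPKM in control TC32 cells, and 4 reached the threshold after knockdown of EWS-FLI1, with relative log2 ratios of 2.66 for EGR1, 2.14 for FOSL2, 1.84 for IER3 and 1.56 for JUN, where 9.18% of all names were higher. The other 6 had ratios between 0.19 and 0.99. With YK none of the 10 reached the threshold against control, where 2.41% of the 9939 compared genes were higher and 1.69% lower, and 1.6% and 0.74% of all names. As deposited, before scaling, 7 of the 10 had higher FPKM after knockdown than in the control (JUND, IER2 and IER3 did not), and 2 of the 10 did with YK (FOSB and FOSL1). JUND was the most abundant of the 7 FOS and JUN family transcripts in every library. Among the 5 genes that met the filter, 3 were called higher after knockdown (FOSL2, EGR1 and IER3) and 0 lower, where 17.3% of the 9939 compared genes were higher and 17.0% lower. The filter favours genes high in a library, so this count is a description only. Over all 10 genes without the filter, JUN was also higher, which makes 4, where 9.18% of 22714 names were higher and 7.44% lower. The median relative log2 ratio of the 10 was 0.97 after knockdown, against 0.048 over all names, and 0.20 with YK, against 0.047. Their median was therefore above that of all names in both comparisons, which share the control library.

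**Figure D1:**
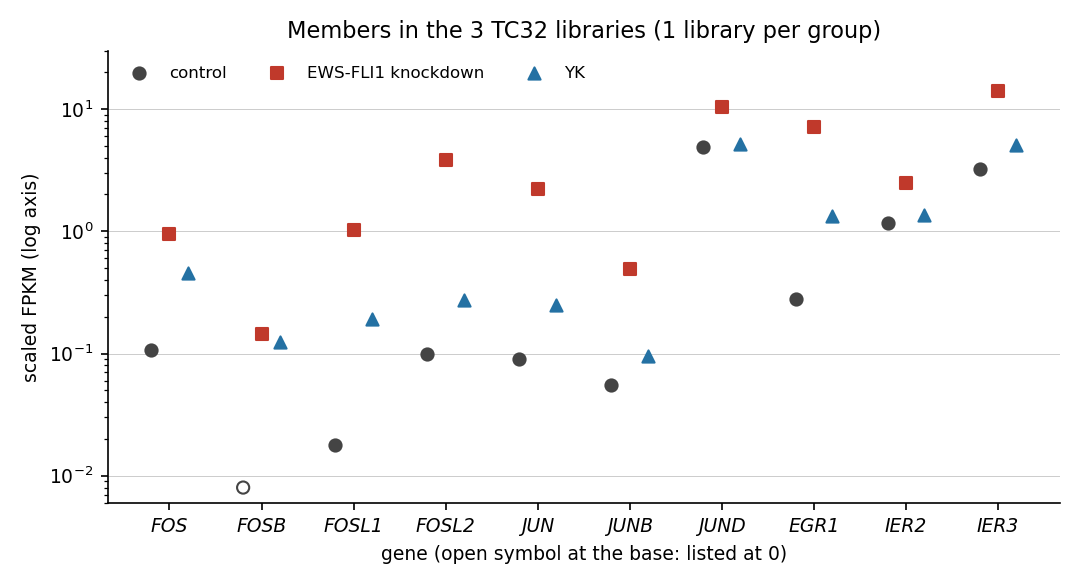
Scaled FPKM on a log axis of the 10 genes in the control, knockdown and YK libraries, 1 point per library with no error bar since each group is 1 library. The open symbol at the base marks FOSB, listed at 0 in the control. The knockdown point is the highest for each gene.

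The FOS family members differed in how far they stood apart. FOSL2, which encodes the FOS-related factor FRA-2, had 0.306 FPKM in the control, 2.67 after knockdown and 0.130 with YK. Scaled, these were 0.0993, 3.85 and 0.274, from about 32, 1065 and 69 estimated fragments. FOSL2 was thus high in the knockdown library alone, also as deposited. Its relative log2 ratio was 2.14 (SE 0.04, counting error only), and without a pseudocount the fold was 38.7 (95% counting interval 27.3 to 56.9). With YK its ratio to control was 0.21 (SE 0.04).

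FOSL1, which encodes FRA-1, an AP-1 partner common in mesenchymal and invasive cells, had 0.0548 FPKM in the control, 0.711 after knockdown and 0.0913 with YK. These correspond to about 1, 70 and 12 fragments, so the control level rests on hardly any reads. The relative log2 ratio after knockdown was 0.99 (SE 0.09), just under the threshold, and the fold without a pseudocount was 57.5 with a counting interval of 9.99 to 2303. Scaled, FOSL1 had 0.0178 in the control and 1.02 after knockdown, so the added 1 weighs heavily on its ratio. With YK the fold was 10.9 (1.61 to 464).

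FOS, the prototype of the family and a serum response gene, had 0.329, 0.660 and 0.215 FPKM in the control, knockdown and YK libraries. Scaled, it had 0.107, 0.95 and 0.455, from about 11, 85 and 37 fragments. The relative log2 ratio was 0.82 (SE 0.09) after knockdown and 0.39 (SE 0.09) with YK, below the threshold in both. Without a pseudocount the folds were 8.89 (4.73 to 18.5) and 4.26 (2.13 to 9.26). FOSB, a close relative of FOS, was listed at 0 in the control, where no fold is drawn, and had 0.0995 FPKM after knockdown and 0.0590 with YK, from about 22 and 18 fragments. FOSB was therefore not detected in the control and scarce in the treated libraries.

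Of the JUN family, JUN stood apart after knockdown. JUN, the main transactivating partner of FOS proteins, had 0.277 FPKM in the control, 1.53 after knockdown and 0.118 with YK, which scaled to 0.0898, 2.2 and 0.249. Its relative log2 ratio was 1.56 (SE 0.06) after knockdown and 0.20 (SE 0.06) with YK, and the knockdown fold without a pseudocount was 24.5 (14.7 to 44.4). JUNB, a JUN relative that can restrain JUN activity, had 0.169, 0.341 and 0.0451 FPKM, from about 5, 37 and 7 fragments, with ratios of 0.50 (SE 0.09) and 0.05 (SE 0.06). JUN was thus past the threshold in the knockdown library and JUNB was not.

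JUND, the JUN member expressed in many resting cells, was much the most abundant of the 7. It had 15.0 FPKM in the control, 7.22 after knockdown and 2.47 with YK, which scaled to 4.88, 10.4 and 5.22. The direction for JUND turned with the scaling, since its deposited values were lower in both treated libraries and its scaled value was highest after knockdown. The relative log2 ratio was 0.96 (SE 0.07) after knockdown, just under the threshold, and 0.08 (SE 0.09) with YK.

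EGR1 had the largest relative log2 ratio of the 10 genes after knockdown. Without a pseudocount, FOSL1 and FOSL2 had larger folds, at 57.5 and 38.7. It had 0.854 FPKM in the control, 4.91 after knockdown and 0.632 with YK, which scaled to 0.277, 7.07 and 1.34, from about 41, 916 and 157 fragments. EGR1 was high after knockdown both as deposited and when scaled. The relative log2 ratio was 2.66 (SE 0.06) after knockdown, a fold of 25.5 (18.7 to 35.8) without a pseudocount. With YK the ratio was 0.87 (SE 0.08), below the threshold, although the fold without a pseudocount was 4.83 (3.40 to 6.99). The 2 CArG boxes printed above lie in its promoter window.

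IER2 had the smallest knockdown ratio of EGR1, IER2 and IER3. It had 3.62, 1.72 and 0.636 FPKM in the control, knockdown and YK libraries, or 1.18, 2.48 and 1.35 when scaled. Its relative log2 ratios were 0.68 (SE 0.09) and 0.11 (SE 0.09), and like JUND it was lower than control in both treated libraries as deposited.

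IER3 was spread over 7 loci, of which 5 were at 0 in all libraries. Summed, it had 9.95, 9.81 and 2.40 FPKM, which scaled to 3.23, 14.1 and 5.09, so that the knockdown value was higher only after scaling, with relative log2 ratios of 1.84 (SE 0.09) after knockdown and 0.53 (SE 0.11) with YK. The 2 loci above 0 did not share a pattern. The locus listed between FLOT1 and SFTA2, with 16 named neighbours on the minus strand and 1 on the plus strand among the 10 rows on either side, had 2.61 FPKM in the control, 8.56 after knockdown and 0.722 with YK. IER3 itself lies on the minus strand. Its scaled values there were 0.846, 12.3 and 1.53, with ratios of 2.85 after knockdown and 0.45 with YK. The locus listed between TUBB and DDR1, with 18 named neighbours on the plus strand and 0 on the minus strand, had 7.34, 1.25 and 1.68 FPKM, or 2.38, 1.8 and 3.56 when scaled, and its ratios were -0.27 and 0.43. The summed value was thus higher after knockdown through the locus between FLOT1 and SFTA2 alone, while the other locus, which gave most of the sum in the control, was slightly lower. The 5 loci at 0 also follow FLOT1 in the listing, with 19 named neighbours on the minus strand and 0 on the plus strand. By its neighbours, the locus between FLOT1 and SFTA2 is thus the one on IER3's own strand. Strand is inferred here from the names of neighbouring rows. Which locus is the annotated IER3 transcript cannot be told for certain without coordinates, so the call for IER3 depends on it.

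**Figure D2:**
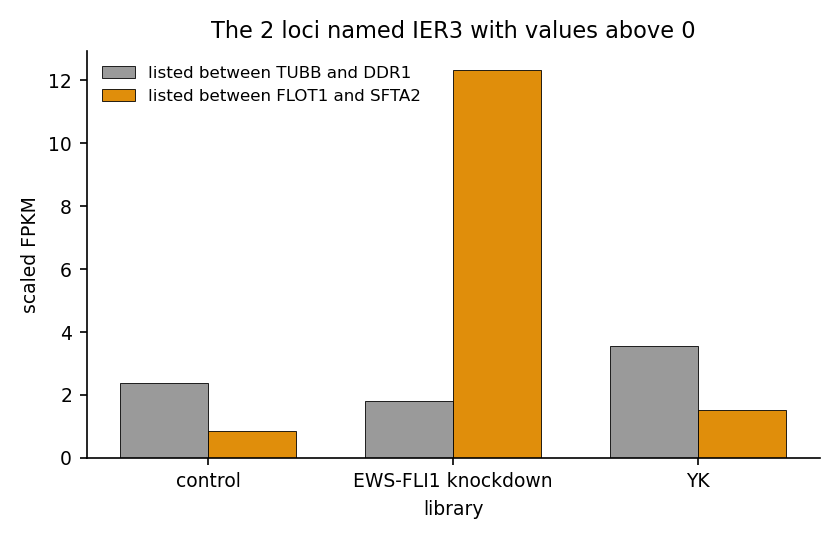
Scaled FPKM of the 2 loci named IER3 that were above 0, in each library, with bars starting at 0 and 1 library per bar. The locus between FLOT1 and SFTA2 reaches 12.3 after knockdown, and the locus between TUBB and DDR1 stays between 1.8 and 3.56.

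Scarce genes as a class were higher relative to the median gene in both treated libraries, and most members are scarce. The 48567 unnamed loci above 0 in every library had median log2 ratios of scaled values of 2.38 after knockdown and 3.06 with YK. Each member was therefore set beside named genes of like abundance, in 20 equal groups by the mean log2 level of the libraries compared, with no pseudocount. After knockdown, FOSL2 had a log2 ratio of 5.28 where its abundance group had a median of 1.18, with a middle 50% from 0.33 to 2.12. FOSL1 stood at 5.85 against 2.02, EGR1 at 4.67 against 0.84 and JUN at 4.62 against 1.42. FOS was at 3.15 against 1.74, JUNB at 3.17 against 1.85, IER3 at 2.13 against -0.17 and JUND at 1.09 against -0.17. Of the 9 genes with a ratio, 8 lay above the middle 50% of their abundance group after knockdown, and IER2, at 1.08 against 0.84, lay inside it. For FOS and JUNB, whose control levels rest on about 11 and 5 fragments, the counting interval reached into the middle 50%. The margin over the group median was thus 3.19 or more for FOSL2, FOSL1, EGR1 and JUN and 2.30 for IER3. It was 1.41 for FOS, 1.31 for JUNB, 1.26 for JUND and 0.23 for IER2.

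With YK the same setting gave a different picture. EGR1 stood at 2.27 where its abundance group had a median of 0.61 and a middle 50% from 0.09 to 1.27. FOSL1 was at 3.44 against 2.30, IER3 at 0.66 against 0.05 and FOS at 2.09 against 1.47. JUN at 1.47 and FOSL2 at 1.47 were both below their group median of 1.75, and JUNB at 0.80 was under the middle 50% of its group, whose median was 2.26. Of 9 genes, 3 lay above the middle 50% (EGR1, FOSL1 and IER3) and 1 below it. By definition, the genes of a group outside its middle 50% are split evenly above and below, and the 3 above are close to that share. The counting intervals of FOSL1 (fold of 1.61 to 464) and JUNB (0.477 to 6.97) reached into the middle 50% of their groups. The folds of FOS, FOSL2 and JUN with YK were thus of the size seen in other genes as scarce as they are.

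**Figure D3:**
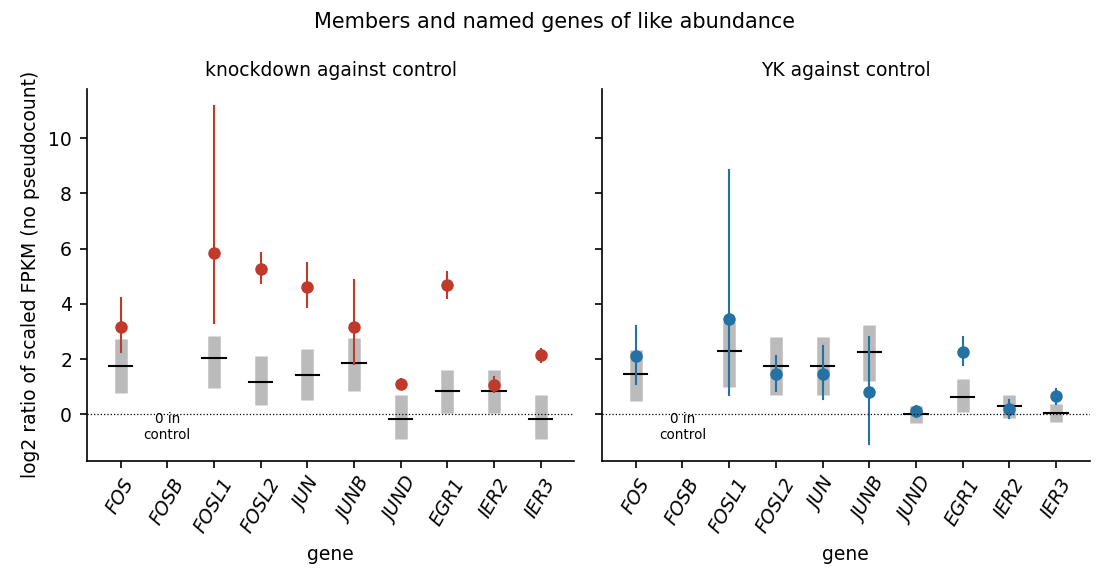
Log2 ratio of scaled FPKM without a pseudocount for each gene (points, with 95% counting intervals), after knockdown on the left and with YK on the right, both against the same control library. Grey bars are the middle 50% and black lines the median of named genes of like abundance. After knockdown 8 of 9 points lie above the grey bar, and with YK 3 of 9 do. Among points outside the bar, the intervals of FOS and JUNB on the left and FOSL1 and JUNB on the right reach into it.

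Shares within a library do not depend on the scaling between libraries. They still carry the shift of scarce genes against abundant ones, which the scaling does not remove. With YK, genes of like abundance had median log2 ratios of 1.47 for FOS and 1.75 for FOSL2 and JUN, against -0.0036 for JUND. After knockdown the medians were 1.18 for FOSL2 and 1.42 for JUN, against -0.17 for JUND. How much of the shares below this shift makes up was not tested. JUND gave 93.0% of the summed FPKM of the 7 FOS and JUN genes in the control, 54.6% after knockdown and 78.9% with YK. The 4 FOS family genes together gave 4.27%, 31.3% and 15.8%. FOSL2 alone went from 1.89% in the control to 20.2% after knockdown, against 4.15% with YK, and JUN from 1.71% to 11.6%, against 3.77%. FOS had its largest share with YK, at 6.89%, against 4.99% after knockdown and 2.04% in the control. The pool was therefore nearly all JUND in the control and mixed after knockdown. Relative to JUND, EGR1 stood at 5.69% of its FPKM in the control, 68.0% after knockdown and 25.6% with YK, while IER2 held 24.1%, 23.8% and 25.8%. Ranked among all 22714 names, EGR1 was above 52.1% of them in the control, 80.6% after knockdown and 62.7% with YK. FOSL2 was above 44.4%, 72.2% and 41.6%, and JUN above 43.5%, 64.2% and 40.3%. FOSL2 and JUN thus ranked higher after knockdown alone, whereas EGR1 ranked higher in both treated libraries.

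**Figure D4:**
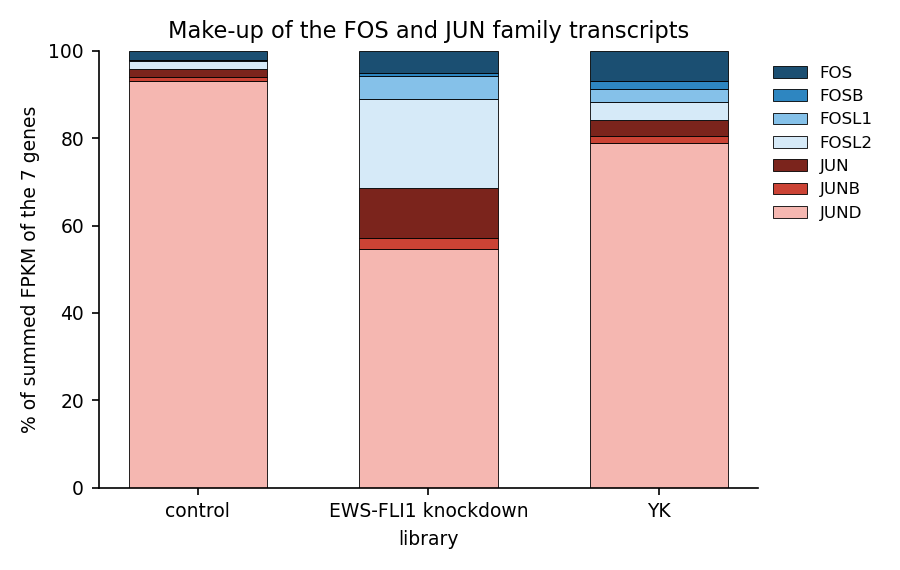
Share of each gene in the summed FPKM of the 7 FOS and JUN family genes, in percent, 1 bar per library. JUND fills 93.0% of the control bar, 54.6% of the knockdown bar and 78.9% of the YK bar.

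Set directly against the knockdown library, the YK library had lower scaled values for each of the 10 genes. Of the 5 that met the filter, FOSL2 at -1.93 (SE 0.05), EGR1 at -1.79 (SE 0.08) and IER3 at -1.31 (SE 0.09) were called lower, where 14.5% of the compared genes were lower and 15.3% higher. JUN stood at -1.36 (SE 0.07), and 4 of the 10 were past the threshold without the filter, where 7.16% of names were lower and 6.94% higher. FOSB differed by -0.02 (SE 0.05), within counting error. FOS was at -0.42 and JUND at -0.87, so on this measure the gap between the libraries was widest for FOSL2 and EGR1. Without a pseudocount it was widest for FOSL2 at -3.81 and JUN at -3.15, with FOSL1 and EGR1 each at -2.40.

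Genes on either side of AP-1 were described by 4 lists, drawn up from general knowledge but with earlier results of these data known, so their counts are descriptions and not independent evidence. Over all compared genes, 17.3% were higher and 17.0% lower after knockdown, and 2.41% and 1.69% with YK. Of 47 other immediate early genes, 28 met the filter, and 15 of these were higher and 0 lower after knockdown, with a median relative log2 ratio of 1.37 against 0.0064 over all compared genes. For 3 of the 28 only the knockdown library had 1 FPKM or more. Over all 47 without the filter, 15 were higher and 0 lower, where 9.18% and 7.44% of all names were, and the median was 0.67 against 0.048. CYR61 and CTGF, matricellular proteins of the serum response, had 0.901 and 0.319 FPKM in the control against 68.1 and 46.5 after knockdown, with ratios of 6.26 and 5.95. HBEGF, a ligand of the EGF receptor, was at 4.95 and PHLDA1 at 2.92. With YK, 3 of the 28 were higher and 0 lower, with a median of 0.22, or 0.02 over all 47, and the higher count ran from 0 to 12 over the alternatives tried. These were CTGF at 1.65, the kinase SGK1 at 1.62 and CYR61 at 1.59. DUSP1, a phosphatase that ends MAP kinase signals and is itself an immediate early gene, was at 2.02 after knockdown and -0.06 with YK, and is named after its values were seen.

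Among 23 other leucine zipper factors that can share partners or sites with AP-1, 13 met the filter, with 3 higher and 0 lower after knockdown and a median of 0.49, or 0.19 over all 23. The higher count is close to the 17.3% of all compared genes, and the lower count was between 0 and 2 in 11 of the 12 alternatives and 10 on deposited values. NFE2L1, a stress factor that regulates proteasome genes, was at 2.52, the stress-induced ATF3 at 2.24 and DDIT3, which encodes CHOP, at 1.45. ATF7, an ATF2 relative, was at -0.98. With YK none of the 13 was past the threshold, and CEBPB at 0.87, ATF5 at 0.61, in a locus joined with a microRNA, and DDIT3 at 0.53 were farthest from 0. ATF3 had 1.58 FPKM in the control, 4.26 after knockdown and 0.270 with YK, and like FOSL2 was high in the knockdown library alone.

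Of 42 upstream kinases and factors, 28 met the filter, and 4 were higher and 2 lower after knockdown, with a median of 0.60, or 0.44 over all 42. Both counts are under the shares of 17.3% and 17.0% over all compared genes, and the higher count ran from 0 to 9 over the alternatives. The kinase MAP2K6, which activates p38, had 39.1 FPKM in the control and 1.47 after knockdown (-2.14), and NRAS was at -1.56. ELK3, a ternary complex factor that binds with serum response factor, was at 1.54. With YK none of the 28 was past the threshold, where MAP2K6 was at -0.59 and BRAF at 0.58. CREBBP at 1.02 and EP300 at 1.37, coactivators of AP-1 and other factors, were also higher and are named after their values were seen.

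Of 45 genes known as AP-1 targets, 26 met the filter, and 19 were higher and 4 lower after knockdown, where 17.3% and 17.0% of the compared genes were, with a median of 2.28. For 3 of the 26 only the knockdown library had 1 FPKM or more, and over all 45 without the filter 22 were higher and 4 lower, with a median of 0.98. FN1, which encodes fibronectin, was at 6.69 and CLU, a secreted chaperone, at 6.04. CCL2, a chemokine, was listed at 0 in the control and had 17.4 FPKM after knockdown and 1.89 with YK. CCND1, the G1 cyclin often named as a JUN target, went the other way, at -2.32, with CAV1 at -1.55, DCN at -1.86 and EZR at -1.81. These 4 make up the lower count and are named after their values were seen. With YK, 8 of the 26 were higher and 0 lower, where 2.41% and 1.69% of the compared genes were, with a median of 0.69, or 0.45 over all 45. The highest ratios included FN1 at 3.40, TNC, a matrix glycoprotein, at 2.57 and CCL2. Many of these genes are known targets of other pathways as well, and several are matrix genes, so the list does not measure AP-1 activity. On deposited values without scaling, the medians after knockdown were -1.40 for the leucine zipper factors, -0.41 for the immediate early genes, -1.10 for the upstream genes and 0.67 for the targets, and with YK they were -2.37, -1.58, -1.85 and -1.34.

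**Figure D5:**
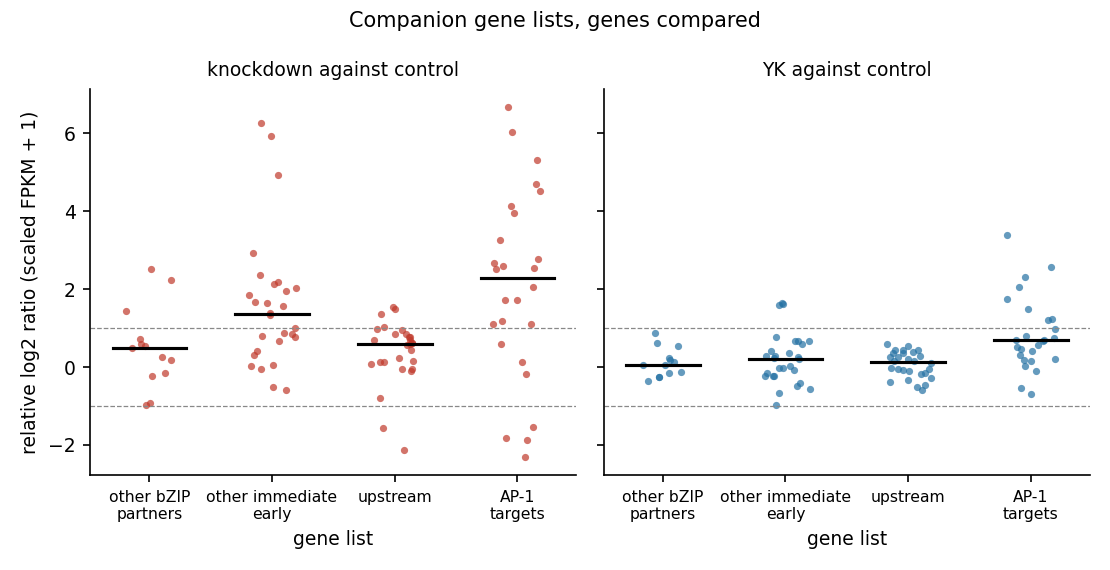
Relative log2 ratio of each compared gene on the 4 lists, after knockdown on the left and with YK on the right, both against the same control library. Black lines are medians, dashed lines the threshold of 1 in either direction, and sideways spread is for display only. The medians after knockdown are 0.49, 1.37, 0.60 and 2.28 from left to right.

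The compared genes whose ratios lay nearest to those of EGR1 were found by the distance over the 2 relative log2 ratios to control, which rest on 3 libraries. Among the 5 nearest were RIN2, PRAF2, LPIN1 and RBMS3. RIN2 had 0.737, 4.69 and 0.589 FPKM, with ratios of 2.64 and 0.86 at a distance of 0.022. RBMS3, the fifth, was at 2.73 and 0.79, at a distance of 0.11. With so few libraries such a likeness is only of 2 numbers.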

How the data were processed

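Per the file headers, the authors deposited FPKM for 88434 loci in each of 3 libraries, 1 per group. Per the submitters' processing notes, CASAVA 1.8.2, TopHat and Cufflinks 2.2.1 were used with GRCh37 (hg19). The sources used do not give the annotation, any scaling between libraries or the handling of shared reads. Rows of 1 gene name were summed (22714 names). Scaling factors came from the median, over compared genes above 0 in all 3 libraries, of the ratio to the gene's geometric mean. Ratios used log2(scaled FPKM + 1). The scaling factors were checked on simulated data, drawn from genes of at least 1 FPKM in the control. That check leaves out most of the 10 members and any shift of scarce genes, and it changed far fewer genes than were called after knockdown here. Named genes were the 10 members, FLI1, from each list the 4 largest absolute ratios after knockdown and the 3 largest with YK, and the 5 nearest to EGR1. Some results that this rule names are not reported here. The members and lists were chosen with earlier results of these data known. Fragments were estimated from FPKM, the longest GENCODE release 29 transcript and the lowest values of single-transcript olfactory receptor genes, where 1 fragment in 1 kb was worth 0.0650, 0.0168 and 0.0126 FPKM in the control, knockdown and YK libraries. SE and intervals (exact, from these fragments, 95%) are approximate and cover counting error only. Python 3.11.15 and scipy 1.17.1 were used.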

Additional observations from a re-analysis of the deposited data

How the results depend on the processing

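With 12 alternatives, 10 of them planned and 2 added after seeing the data (no pseudocount, and scaling on all named genes above 0), FOSL2 and EGR1 stayed at or above 1 after knockdown in all 12, and JUN in 10 of 11, with 0.99 as deposited. IER3 was at -0.018 without scaling and at or above 1 in the other 11. The 3 members higher after knockdown became 5 with a pseudocount of 0.1, 5 with none and 1 at a mean FPKM of at least 5. They became 2 without scaling, and 4 with a pseudocount of 0.5, without the filter or relative to genes of like abundance. With YK against control, the 0 higher became 1 with a pseudocount of 0.1, 1 with 0.5, 2 with none and 2 on deposited ratios centred on their median, and the 0 lower became 3 without scaling. Against knockdown, the 3 lower became 1 at a mean FPKM of at least 5 and 4 without the filter or without scaling. FOSL2, EGR1 and IER3 were at or below -1 in all 12. The median of the other immediate early genes after knockdown was -0.41 without scaling. The cause was not tested, except that the stricter filter leaves fewer genes. Values relative to genes of like abundance could not be had here for members under the filter. No paired analysis was possible because each group has 1 library. Control levels of FOSB, FOSL1, JUNB and FOS rest on about 0, 1, 5 and 11 fragments, which limits their folds.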

Other observations

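EGR2, a relative of EGR1, did not share its pattern. It was chosen after its values were seen. EGR2 had 9.55 FPKM in the control, 1.18 after knockdown and 0.843 with YK, which scaled to 3.10, 1.70 and 1.79, with relative log2 ratios of -0.60 and -0.56. EGR1 stood at 2.66 and 0.87 in the same comparisons. NAB1, a corepressor of EGR proteins, was at 0.01 after knockdown and -0.41 with YK, and SRF, the factor that binds CArG boxes, at 0.67 and 0.26. The orphan receptors NR4A1 and NR4A2, also immediate early genes, were under the filter, with 0.121, 0.184 and 0.0144 FPKM for NR4A1 and 0.518, 0.297 and 0.0554 for NR4A2. Scaled, these were 0.0392, 0.264 and 0.0305 for NR4A1 and 0.168, 0.428 and 0.117 for NR4A2, so that NR4A2 was lower after knockdown as deposited and higher when scaled. Of the inflammatory AP-1 targets under the filter, IL8 had 0.127 FPKM in the control, 1.38 after knockdown and 0.0554 with YK, and IL6 had 0.0453, 0.493 and 0.0181. Both were highest after knockdown, also as deposited, and were likewise chosen after their values were seen.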
